A study of Caenorhabditis elegans with 2 samples.

Results

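The peaks described here are the weaker LIN-14 binding peaks that both biological replicates contained. They were selected on the measured peak lists themselves. A peak of the pooled list was a member when it was absent from the list that passed the authors' irreproducible discovery rate (IDR) threshold and when its summit lay within 100 bp of a summit in each replicate's own list. This rule chose 6417 of the 24683 pooled peaks. They are called weaker peaks below and are set against the 11507 thresholded peaks. The pooled score, the replicate scores and anything that follows from them were used by the rule, so these values are described and not tested.

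The series is a chromatin immunoprecipitation sequencing (ChIP-seq) map of LIN-14 in the nematode Caenorhabditis elegans, with 1 group and 2 biological replicates and no second condition. The animals were strain OP768, which carries the unc-119(tm4063) mutation and the transgene wgls768, in which lin-14::TY1::EGFP::3xFLAG was introduced beside a functional unc-119(+) copy, so that tagged LIN-14 came from added copies of lin-14 in a single line. Whole L1 larvae of mixed sex, aged 6 hours and synchronised by starving hatchlings after bleaching, were used, and the fusion protein was pulled down with an antibody against GFP. All tissues are therefore mixed in each value, and binding in few cells cannot be told apart from weak binding in many. The files hold no read counts, so the depth is unknown, and the intervals below count peaks or genes only, as if these were independent of each other.

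LIN-14 is a nuclear DNA-binding protein that sets the timing of larval cell fates. It is abundant early in the first larval stage and is then repressed by the lin-4 microRNA, which lets later fates appear. In an IDR procedure, peaks are ranked in each replicate and kept while the ranks remain reproducible, so the peaks below the threshold can include faint sites as well as noise.

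Sequences of 101 bp around the summits of 8 weaker peaks are given first, because the results below return to 3 short sequences within them. They were chosen after the sequences had been seen. All are the plus strand, 5′ to 3′, of the RefSeq copy of the WBcel235 assembly (the ce11 build of the peak lists), with positions counted from 1. Capitals mark matches to 3 short sequences on either strand, with overlapping matches run together. The first is GAGAG, which reads as CTCTC on the other strand. The second is ACGCAG, which then reads as CTGCGT, and the last is TGATAA, which then reads as TTATCA. None of the 8 windows overlaps an annotated exon. The first 3 are among the strongest weaker peaks, and the last 3 lie before genes of the intestine.
nhr-175 promoter, chrV:13866524-13866624: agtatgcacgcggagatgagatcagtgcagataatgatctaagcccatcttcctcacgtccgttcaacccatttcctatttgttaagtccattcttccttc
crh-1 intron, chrIII:11679635-11679735: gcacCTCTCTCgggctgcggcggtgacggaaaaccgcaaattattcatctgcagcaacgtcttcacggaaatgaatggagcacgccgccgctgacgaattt
tbx-2 intron, chrIII:5134568-5134668: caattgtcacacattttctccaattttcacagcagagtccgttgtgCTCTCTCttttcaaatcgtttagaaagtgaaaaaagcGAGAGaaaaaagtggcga
nhr-71 promoter, chrX:13746730-13746830: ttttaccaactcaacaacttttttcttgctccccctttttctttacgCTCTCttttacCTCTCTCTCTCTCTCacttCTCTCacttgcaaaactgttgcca
H10E21.1 and nhr-80 promoters, chrIII:15409-15509: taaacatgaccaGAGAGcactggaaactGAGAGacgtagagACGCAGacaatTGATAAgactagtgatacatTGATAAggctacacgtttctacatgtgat
ifd-2 promoter, chrX:816069-816169: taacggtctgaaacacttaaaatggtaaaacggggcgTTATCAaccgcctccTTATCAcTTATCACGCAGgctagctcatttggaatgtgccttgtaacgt
mtl-1 promoter, chrV:6692076-6692176: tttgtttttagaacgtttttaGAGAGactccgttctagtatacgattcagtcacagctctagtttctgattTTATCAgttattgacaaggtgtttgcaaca
cpr-1 promoter, chrV:11975116-11975216: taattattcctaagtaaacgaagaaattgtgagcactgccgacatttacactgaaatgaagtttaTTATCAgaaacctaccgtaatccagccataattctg

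These 8 windows differ in what they hold. The window at ifd-2, which encodes an intermediate filament protein of the intestine, has 3 copies of TGATAA on the minus strand and 1 of ACGCAG. The window between H10E21.1 (summit at -313 bp) and nhr-80 (-590 bp), a nuclear hormone receptor gene of fatty acid metabolism, belongs to both genes and has 2 copies of TGATAA, 2 of GAGAG and 1 of ACGCAG. The window before nhr-71, another nuclear receptor gene, holds 8 matches to CTCTC, most of which overlap in a single run. The nhr-175 window, from the second highest scoring newly reached gene, holds none of the 3 sequences.

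The score is the authors' measure of peak strength and is used here to rank and describe peaks within a list. Scores of the 2 replicate lists are set side by side as values, since their scales may differ. The threshold fell at a single pooled score, since the 11507 thresholded peaks were the highest scoring of the pooled list. Of the 13176 pooled peaks below it, 6417 (48.7%) were found in both replicates, 3127 in replicate 1 alone, 2707 in replicate 2 alone and 925 in neither. The share found in both climbed with the pooled score. It was 12.2% for scores of 30 to 50, 47.6% for 50 to 75, 74.1% for 75 to 100, 83.8% for 100 to 125 and 87.8% for 125 to 150. Among the thresholded peaks, 11120 (96.6%) had a summit within 100 bp in both replicates.

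The scores of the weaker peaks ran from 30.9 to 147.47 with a median of 89.6. Those of the thresholded peaks ran from 147.48 to 13287.5 with a median of 359. The strongest weaker peaks lay in introns of crh-1, which encodes a CREB-type transcription factor (147.47), of lgc-4, a ligand-gated ion channel gene (147.41), and of tbx-2, a T-box factor gene (147.41). They were followed by peaks before psf-3, which encodes a DNA replication factor (147.4), and nhr-175 (147.2). On the other side of the threshold, the 5 lowest thresholded peaks scored 147.48 to 147.54, nearest to ZK1290.14, F11C3.1, grl-4, H35B03.1 and ogdh-2. The scores were thus continuous across the threshold.

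The authors' −log10 q-value had a median of 1.01 among weaker peaks. The deposited q-value was under 0.05 for 2457 of the 6417 weaker peaks (38.3%) and for all 11507 thresholded peaks. Most weaker peaks were thus called in 2 replicates while the pooled list itself gave them a q-value at or above 0.05. No weaker peak reached the ceiling of the q-value column, against 84.3% of the thresholded peaks. The interval was 410 bp wide in 97.9% of weaker peaks and in 32.7% of thresholded peaks.

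The replicates ordered the weaker peaks less alike than the thresholded ones. Across 6417 weaker peaks, Spearman's correlation between the replicate scores was 0.33, and across the 11120 thresholded peaks found in both replicates it was 0.92. These are correlations across peaks, over a much narrower range of scores in the weaker set. The median log2 ratio of the replicate 1 to the replicate 2 score was 0.24 (SD 0.72) in weaker peaks and 0.35 (SD 0.41) in thresholded peaks. The lists may differ in scale, so only the spread of this ratio is read. The median of the thresholded peaks (0.35) was then removed from both sets. After this, 16.9% of weaker peaks and 2.95% of thresholded peaks differed by more than 2-fold between replicates. Among the highest 11507 peaks of both replicates there were 14 weaker peaks (0.218%), and 658 (10.3%) were that high in at least 1 replicate.

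**Figure D1:**
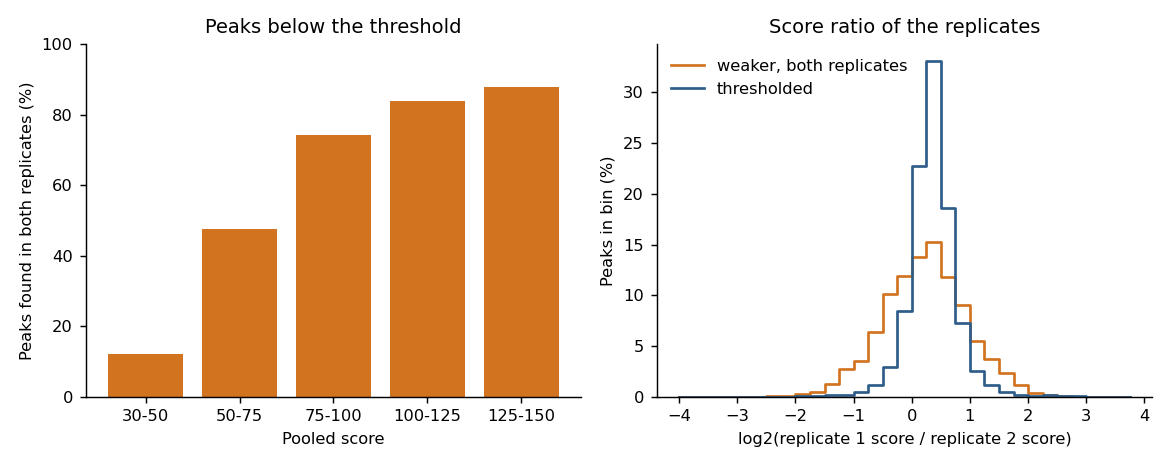
Left, share of peaks below the threshold that were found in both replicates, by pooled score, climbing from 12.2% to 87.8%. Right, distribution of the log2 ratio of the replicate 1 to the replicate 2 score in bins of 0.25, in which the weaker peaks (orange, SD 0.72) spread more widely than the thresholded peaks (blue, SD 0.41).

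Annotation class was not used by the rule and could be tested. The promoter window of a protein-coding gene began 1000 bp before each annotated transcript start and ended 200 bp after it. A summit in no such window was classed, in this order, as 5′ UTR, coding exon, intron, 3′ UTR, downstream (up to 500 bp past a gene) or intergenic. Weaker peaks lay less often in promoter windows, 29.2% (1871 of 6417, 95% exact interval 28.0 to 30.3) against 40.7% of thresholded peaks (4683 of 11507, 39.8 to 41.6). The difference was -11.5 percentage points (-12.96 to -10.1, Fisher's exact test, two-sided, adjusted exact p = 3.0e-53 over 23 position measures). The promoter windows cover 26.2% of the genome.

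Coding exons held the largest relative excess. Of the weaker peaks, 458 (7.14%) had a summit in a coding exon, against 129 thresholded peaks (1.12%), a difference of 6.02 points (5.38 to 6.70, adjusted exact p = 1.1e-98). Coding exons make up 18.8% of the genome in this classification, so both sets held fewer such summits than the covered length. Among the 2457 weaker peaks with a q-value under 0.05 the coding exon share was 3.26%, still above the thresholded share by 2.13 points (adjusted exact p = 9.1e-12). The strongest weaker peak in a coding exon lay in sol-1, which encodes an auxiliary protein of glutamate receptors (score 146), followed by peaks in the globin gene glb-28 and the uncharacterised C24H10.3. The next were in kcnl-4, a potassium channel gene (141), and gpa-8, a G protein alpha subunit gene (140).

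Summits in 3′ UTRs made up 2.76% of weaker and 0.634% of thresholded peaks (adjusted exact p = 7.9e-29), and summits in introns 26.1% of weaker and 23.1% of thresholded peaks (adjusted exact p = 1.3e-05, all by Fisher's exact test). No difference passed the test for intergenic summits (31.0% of weaker and 30.5% of thresholded peaks, difference 0.57 points, -0.84 to 1.98) or for summits just downstream of genes (3.397% and 3.598%). The same held for the rare 5′ UTR summits (0.390% and 0.365%, difference 0.025 points, -0.15 to 0.23). The median distance from the summit to the nearest 5′ end of a protein-coding gene was 1423 bp for weaker peaks and 1137 bp for thresholded peaks.

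**Figure D2:**
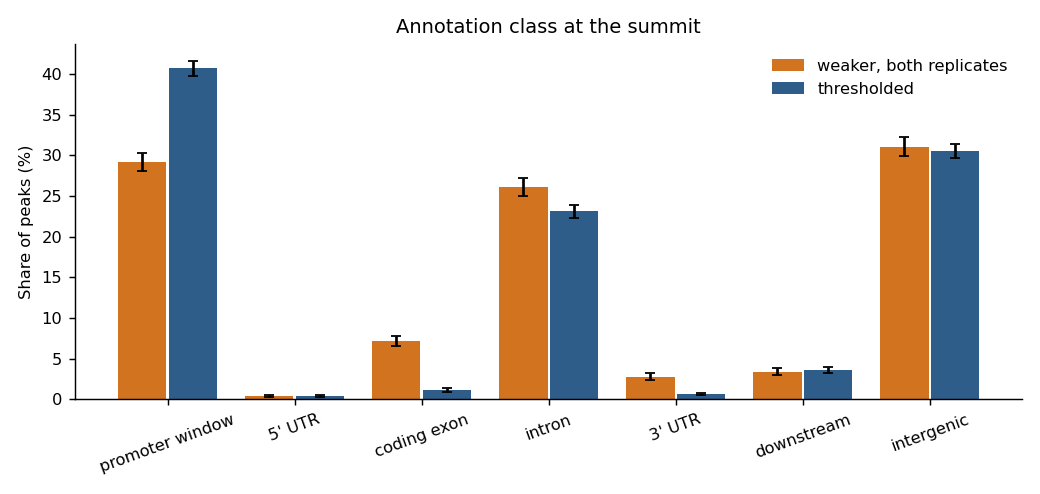
Share of peaks in each annotation class for weaker peaks found in both replicates (orange) and thresholded peaks (blue), with 95% exact binomial intervals. Promoter windows held 29.2% of weaker and 40.7% of thresholded peaks, and coding exons 7.14% of weaker and 1.12% of thresholded peaks.

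Other features of the promoter differed as well. A summit that lay in the windows of a pair of genes on opposite strands, the arrangement of a shared divergent promoter, was found for 84 weaker peaks (1.31%) and 731 thresholded peaks (6.35%, adjusted exact p = 8.5e-64). Weaker summits lay within 100 bp of a tRNA gene in 0.842% of cases and thresholded summits in 1.64% (adjusted exact p = 1.2e-05). For snoRNA genes, whose products guide RNA modification, the shares were 0.171% of weaker and 0.826% of thresholded peaks (adjusted exact p = 1.1e-08). Small nuclear RNA and long intergenic RNA genes were also less often near weaker summits (adjusted exact p = 0.023 and 0.016), with 5 and 18 weaker peaks. For microRNA genes (6 weaker and 11 thresholded peaks) and piRNA genes (20 weaker and 42 thresholded peaks) no difference passed the test. The summit base was soft-masked as a repeat in 19.6% of weaker and 16.4% of thresholded peaks (adjusted exact p = 2.7e-07).

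The X chromosome carried 2047 of the 6417 weaker peaks, or 31.9% (30.8 to 33.1), against 2978 of the 11507 thresholded peaks, or 25.9% (25.08 to 26.7). The difference was 6.02 points (4.63 to 7.42, adjusted exact p = 5.4e-17). The X makes up 17.7% of the genome. Expressed as density, the X had 115.5 weaker peaks per Mb and the autosomes 52.9, while for thresholded peaks the X had 168 per Mb and the autosomes 103. There were 0.69 weaker peaks per thresholded peak on the X and 0.51 on the autosomes. Among the autosomes, II (0.58) and V (0.57) had more weaker peaks per thresholded peak than I (0.46), III (0.47) and IV (0.45). The shares of I, III and IV were lower among weaker peaks (adjusted exact p = 1.0e-05, 8.8e-05 and 1.9e-06), and those of II and V did not pass the test.

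Both differences were present within several subsets, split after the first results had been seen. On the autosomes alone, 30.3% of weaker and 42.3% of thresholded peaks lay in promoter windows, and on the X 26.7% of weaker and 35.96% of thresholded peaks did (adjusted exact p = 6.1e-40 and 1.5e-11 over 21 comparisons). The X share was higher for weaker peaks among promoter summits (29.2% of weaker, 22.9% of thresholded), among intron summits (32.9% and 26.02%) and among intergenic summits (33.9% and 28.9%). The X share was lower for weaker peaks among coding exon summits. Of these, 161 of 458 weaker peaks (35.2%) and 71 of 129 thresholded peaks (55.0%) were on the X, a difference of -19.9 points (-29.2 to -10.2, adjusted exact p = 0.00015). No difference in X share passed the test among 3′ UTR summits (27.7% of weaker, 31.5% of thresholded), 5′ UTR summits (5 of 25 and 7 of 42) or downstream summits (27.5% and 24.4%).

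Within chromosomes, weaker peaks were somewhat more central. The middle one of 3 equal stretches held 54.9% of the autosomal weaker peaks and 50.6% of the autosomal thresholded peaks (adjusted exact p = 1.1e-05). On the X the same stretch held 39.2% of weaker and 34.7% of thresholded peaks (adjusted exact p = 0.0021). Weaker peaks often had a thresholded neighbour. The median distance to the nearest thresholded summit was 1520 bp, 30.5% had one within 1000 bp, and 540 (8.42%) overlapped a thresholded peak. At the other end, 733 (11.4%) had no thresholded summit within 5 kb.

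The 2 measures followed the score differently. From the lowest to the highest of 4 equally filled score bins, the promoter share of weaker peaks was 25.17, 29.4, 30.4 and 31.6%, and that of thresholded peaks went on through 32.9, 34.2 and 42.2 to 53.5%. The X share was 31.2, 32.4, 32.0 and 31.9% in the weaker bins, and 30.3, 27.4, 24.1 and 21.8% in the thresholded ones. The promoter share therefore joined at the threshold without a step, while the X share was level within the weaker peaks and lower in each higher bin of the thresholded peaks. Against the 6417 lowest scoring thresholded peaks instead of all, the promoter difference was -5.13 points (adjusted exact p = 2.8e-09) and the X difference 3.32 points (adjusted exact p = 0.00021).

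**Figure D3:**
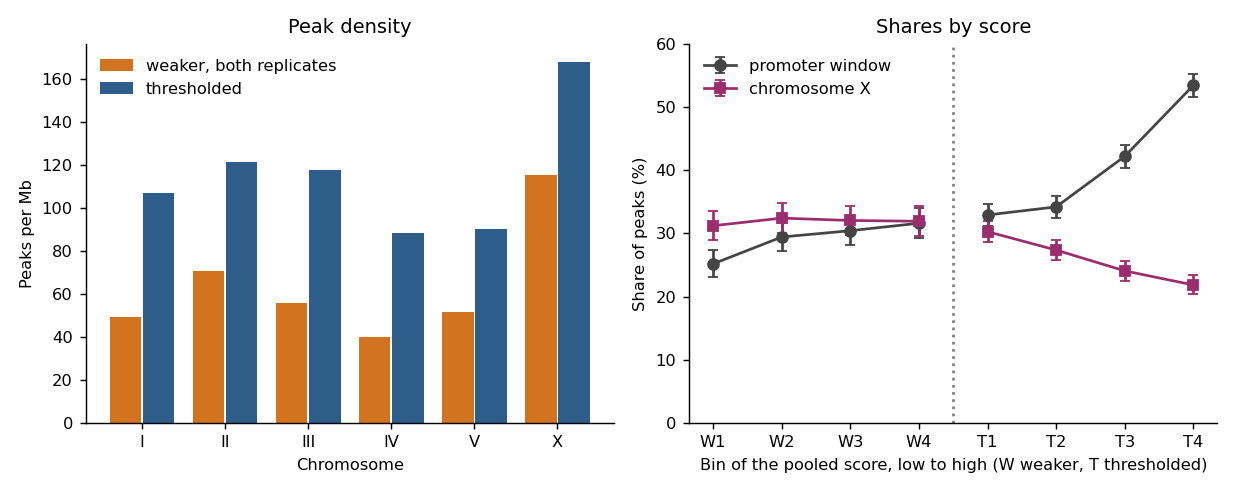
Left, peaks per Mb on each chromosome for weaker (orange) and thresholded (blue) peaks; the X had the highest density of both, 115.5 and 168 per Mb. Right, promoter window share and X share by bin of the pooled score, low to high, within weaker (W1 to W4) and thresholded (T1 to T4) peaks, with 95% exact intervals.

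The shares were also taken from the replicate lists directly. These hold largely the same peaks, so they are a second description and not a separate test. Among replicate 1 peaks whose summit had a replicate 2 summit within 100 bp, those ranked below the 11507 highest of replicate 1 were in promoter windows in 29.1% of cases, on the X in 31.6% and in coding exons in 7.13%, against 41.3, 25.6 and 1.08% for peaks ranked among the highest. For replicate 2 peaks with a match in replicate 1, the shares were 30.1, 31.2 and 6.58% below, against 41.0, 25.7 and 1.08% among the highest. The remaining 6759 pooled peaks, which were below the threshold and not found in both replicates, had 25.8% in promoter windows, 14.7% in coding exons and 29.3% on the X.

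The sequence at the summits was compared over 101 bp windows, with windows centred 300 bp to either side as the local background. The sequences were chosen with earlier results of these data known. The p-values for them below therefore describe the differences and are not independent support. GAGAG, the core of GA-rich repeats, was present at 25.6% of weaker and 41.8% of thresholded summits, a difference of -16.3 points (-17.7 to -14.9, Fisher's exact test, adjusted exact p = 1.0e-106 over 9 sequences). In the flanking windows it was present in 14.3% (left) and 12.5% (right) for weaker peaks, and in 13.7% and 12.7% for thresholded peaks. Of 992797 windows of the same length over the genome, 12.5% held it. GAGAG was thus 1.91 times as frequent at weaker summits as in their flanks, and 3.17 times at thresholded summits. By score bin, low to high, the share was 21.0, 24.9, 26.4 and 29.9% in weaker peaks and 32.3, 36.7, 43.3 and 55.0% in thresholded peaks, so it climbed across the threshold. Against the 6417 lowest scoring thresholded peaks the difference was -9.62 points (adjusted exact p = 2.1e-31). The pooled peaks below the threshold that were not found in both replicates had GAGAG at 19.8% of summits, 1.33 times their flanks.

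ACGCAG was the 6-mer with the highest ratio of summit to flank in thresholded peaks, so its value there is the result of that choice. It was present at 3.24% of weaker summits and 10.7% of thresholded summits, with 1.91% of all windows holding it. Since it was chosen on the thresholded peaks, no test of this difference is given. It still counts among the 9 sequences of the adjustment. Its ratio of summit to flank was 1.78 in weaker and 5.89 in thresholded peaks. The 20 6-mers with the highest ratios in thresholded peaks, chosen in the same way, had a median ratio of 2.01 in weaker peaks, against 1.13 in weaker peaks over all 1830 6-mers compared.

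TGATAA, a sequence of the kind that GATA-type zinc finger factors bind, went in the opposite direction. It was present at 12.6% of weaker and 8.59% of thresholded summits, a difference of 4.0 points (3.05 to 4.97, adjusted exact p = 1.1e-16). Its ratio of summit to flank was 1.34 in weaker peaks and 0.86 in thresholded peaks, and 9.35% of all windows held it. The pooled peaks below the threshold that were not found in both replicates stood between, with 11.5% of summits and a ratio of 1.20. In promoter windows, 16.4% of weaker summits held it, with 9.43% in the flanks of those peaks. By score bin, low to high, the share was 9.84, 13.8, 13.5 and 13.2% in weaker peaks and 11.7, 10.1, 8.34 and 4.21% in thresholded peaks. The share was therefore lowest at the strongest LIN-14 peaks and, at the other end, in the lowest bin of the weaker peaks stood close to its flanks (9.94%). Against the 6417 lowest scoring thresholded peaks the difference was 1.92 points (adjusted exact p = 0.0012).

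**Figure D4:**
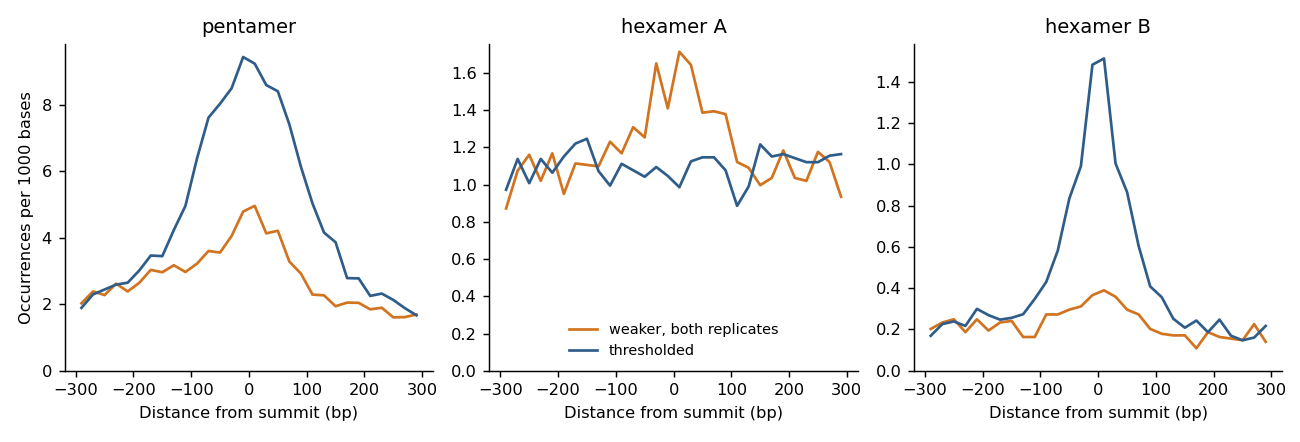
Occurrences per 1000 bases of 3 sequences by distance from the summit, in 20 bp bins on both strands, for weaker (orange) and thresholded (blue) peaks: the pentamer GAGAG, hexamer A (TGATAA) and hexamer B (ACGCAG). All 3 peak near the summit in weaker peaks, while hexamer A has no peak at thresholded summits, where its share of windows was below that of the flanks (8.59% against 9.46 and 10.4%).

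Of the other sequences, CGGAA was slightly more frequent at weaker summits (19.99% of weaker, 17.998% of thresholded) and CGGAG less frequent (12.03% and 15.8%). Their ratios of summit to flank were 1.31 and 1.65 in weaker peaks, against 1.13 and 2.01 in thresholded peaks. TGGAA (27.8% and 22.2%) and GTTC (46.6% and 42.0%) were more frequent at weaker summits, but both were rarer at the summits than in the flanks of either set. TGGAG was less frequent (17.5% and 19.4%), as was CACGTG, the palindromic E-box (2.66% and 4.81%). All of these 6 differences passed the test, with adjusted p between 1.5e-16 and 0.0021. GC content was 39.4% on average at weaker summits and 43.6% at thresholded summits, and between 34.4 and 34.99% in the flanks of both sets. The part of base composition in these differences was not tested.

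The weaker peaks added 1063 protein-coding genes to those with a LIN-14 summit in the promoter window. This is 5.32% of the 19973 genes and 6.91% of the 15374 genes without a thresholded summit in the window, and these are the background shares for the lists below. Thresholded summits were in the windows of 4599 genes (23.03%), of which 629 also had a weaker summit. A newly reached gene is one with a weaker summit and no thresholded summit in its window, and nothing here shows that it responds to LIN-14. Of the 1063 genes, 125 had 2 or more weaker peaks. A thresholded summit lay between 5 kb upstream and 1 kb downstream of the gene body for 770 of them (72.4%). With weaker peaks of q-value under 0.05 alone, 478 genes were newly reached. The lists below were not recounted in this way, so their shares and order include peaks with a q-value at or above 0.05.

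Newly reached genes were more common on the X. There, 294 of the 1804 genes without a thresholded summit were newly reached (16.3%, 14.6 to 18.1), against 769 of 13570 on the autosomes (5.67%, 5.28 to 6.07). Among the autosomes the share ran from 3.98% on IV to 7.36% on II.

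The newly reached genes with the highest scores had mixed roles. They included psf-3, a subunit of the replicative GINS complex (score 147, at -125 bp from the 5′ end), tyms-1, the thymidylate synthase (147, -165 bp), and cyp-25A4, a cytochrome P450 gene (147, -242 bp). Others were pept-3, a peptide transporter gene (147, -252 bp), efn-2, an ephrin gene (146, -372 bp), and gnrr-7, a receptor related to gonadotropin-releasing hormone receptors (146, -904 bp). Also among the 20 highest were spp-13, a saposin-like protein gene, nrfl-1, which encodes a scaffold protein, and clik-3, a calponin-like repeat gene. The remaining ones were nhr-175 and 10 genes known by sequence name alone, such as C34F6.5, ZK265.7 and B0205.9. The scores in replicate 1 and replicate 2 were 109 and 32.0 at ZK265.7, 89.01 and 55.5 at psf-3, and 74.6 and 75.1 at nrfl-1.

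The heterochronic genes, which control developmental timing as lin-14 does, were mostly reached by thresholded peaks already. Of 25 listed genes, 17 had a thresholded summit in the window and 3 were newly reached, hbl-1, blmp-1 and daf-12. The strongest of 3 weaker summits in the windows of daf-12, the nuclear hormone receptor of the larval timing decision, lay in chrX:10664061-10664470 and had a score of 70.7 (51.1 in replicate 1 and 27.3 in replicate 2). This summit lay inside the gene (chrX:10635908-10666875, plus strand), at -140 bp from an internal annotated 5′ end. That before blmp-1, a zinc finger gene, scored 106 (65.3 and 20.8). At hbl-1, a hunchback-like zinc finger gene of L2 fates, the score was 111, with 242 in replicate 1 and 24.0 in replicate 2. Its interval (chrX:5820875-5821381) overlaps a thresholded peak, and the nearest thresholded summit lies 215 bp away, outside the window. The hbl-1 window held 2 weaker summits, of which this is the stronger. Beyond the windows, daf-12 had 8 weaker and 7 thresholded summits from 5 kb upstream to 1 kb downstream of the gene.

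Weaker peaks were also counted at lin-14, lin-28, lin-4, ins-33 and unc-119. Over the same span, lin-14 had 2 weaker and 23 thresholded summits. The weaker ones were an intron summit at 1076 bp from the gene's 5′ end (score 120) and one at -4724 bp (68.1). The transgene adds copies of lin-14 and unc-119, and its part in the signal at these loci was not tested. At unc-119 there were 1 weaker summit (score 40.3) and 2 thresholded ones. lin-28, an RNA-binding protein gene that acts with lin-14, had 1 weaker summit, in its 3′ UTR (50.03), and 5 thresholded ones. Near lin-4 there were 1 weaker summit, in an intron of F59G1.4 (119.2), and 1 thresholded one. ins-33, an insulin-like gene, had neither. The −log10 q-value of the weaker peaks was 1.79 in the lin-14 intron and 1.78 near lin-4. It was 0.527 at -4724 bp from lin-14, 0.222 at lin-28 and 0.106 at unc-119, so the q-value of these peaks was above 0.05.

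Intestinal genes had the highest newly reached share of the 26 lists, 8 of 39 genes (20.5%, 9.30 to 36.5), against 11 with a thresholded summit. The highest scoring were ifd-2 (144), mtl-1, a metallothionein gene (109), cpr-1, a cathepsin B-like protease gene (90.8), and asp-1, an aspartic protease gene (77.3). Their windows at the summit held TGATAA for ifd-2, mtl-1 and cpr-1 and not for asp-1, and for 5 of the 8 in all, against 215 of all 1063 newly reached genes (20.2%). Other small lists had such summits too, among them C-type lectins with 4 of 6 newly reached genes and F-box genes with 2 of 5. The list is small and was 1 of 26. The median score of its 8 newly reached genes was 74.0, against 96.6 over all newly reached genes. Counted over the genes without a thresholded summit only, 8 of 28 intestinal genes (28.6%) were newly reached, and the heterochronic list (3 of 8) and the body wall muscle list (3 of 10) then stood higher. The replicate scores were 75.2 in replicate 1 and 19.98 in replicate 2 at mtl-1, and 23.6 and 55.6 at cpr-1.

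Neuropeptide genes followed with 14 of 102 newly reached (13.7%, 7.71 to 22.0) and 19 with a thresholded summit. They included flp-3 (137) and flp-9 (77.8), which encode FMRFamide-like peptides, and nlp-8 (125) and nlp-53 (84.4). The median score of these 14 genes was 57.2, against 96.6 over all newly reached genes. TGATAA was held by 1 of the 14 summits (7.14%, 0.18 to 33.9), an interval that includes the 20.2% of all newly reached genes. Homeobox genes named ceh had 8 of 63 newly reached (12.7%, 5.65 to 23.5). Among them were ceh-6, a POU-type factor gene (117), ceh-45 (96.9), ceh-5 (92.9) and ceh-16, the engrailed homolog (84.7). Nuclear receptor genes had 22 of 269 (8.18%), led by nhr-175 (147), nhr-107 (142), nhr-80 (142) and nhr-71 (136). The interval of that share (5.20 to 12.1%) included the 5.32% of all genes. Those of the neuropeptide and ceh lists lay above 5.32%, but the 26 lists were chosen with earlier results known and were not tested. Some peaks in these lists lie in the windows of a pair of genes, among them those counted for nhr-80, cyb-3, cdk-1, lag-1 and tdc-1.

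Genes of seam cells and epidermal fate had 3 of 31 newly reached (9.68%), elt-6, a GATA factor gene (97.1), ceh-16, and lag-1, the transcriptional effector of Notch (69.97). The molting list had 4 of 42 (9.52%), nekl-3, a kinase gene (124), cdh-4, a cadherin gene (107), blmp-1 and the cuticle collagen bli-1 (51.4). In the cell cycle list 3 of 39 (7.69%) were newly reached, namely the B-type cyclin cyb-3 (123), the cyclin-dependent kinase inhibitor cki-1 (93.6) and the kinase cdk-1 (86.8). Of the Hox genes and cofactors, psa-3, a homothorax-related cofactor (84.2), was the 1 newly reached of 11. Body wall muscle genes had 3 of 45 (6.67%), unc-87 (108), unc-68, the ryanodine receptor (95.4), and unc-120, the serum response factor homolog (71.7), with 35 of 45 already reached by thresholded peaks. Each list in this paragraph rests on few genes, and each 95% exact interval included the 5.32% of all genes. The intervals were 2.04 to 25.8% (seam), 2.66 to 22.6% (molting), 1.62 to 20.9% (cell cycle), 0.23 to 41.3% (Hox) and 1.40 to 18.3% (muscle).

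Other lists had shares at or below that of all genes, 5.32%. Of the lists in this paragraph, the intervals of F-box genes (0.506 to 3.59%) and chemoreceptors (0.547 to 1.75%) lay below it. Those of the others included it. The order also depends on the genes counted. Over genes without a thresholded summit, general neuronal genes had 2 of 24 (8.33%, 1.03 to 27.0), against 6.91% over all such genes. On that count C-type lectins had 6 of 233 (2.58%, 0.951 to 5.52), an interval below the 6.91%. Cuticle collagens named col had 8 of 156 (5.13%), led by col-93 (132), insulin-like genes 2 of 39 (5.13%), ins-27 (117) and ins-1 (62.01), and UDP-glucuronosyltransferases 3 of 67 (4.48%), led by ugt-40 (124). General neuronal genes had 2 of 47 (4.26%), ric-4, the SNAP-25 homolog (79.4), and tdc-1, tyrosine decarboxylase (45.8). Cytochrome P450 genes had 3 of 74 (4.05%), helix-loop-helix genes 1 of 25 (hlh-4, 92.0) and hedgehog-related genes 2 of 59 (hog-1, 143, and grl-8, 109). The large chemosensory and defence families were rarely reached by either set. C-type lectins had 6 of 240 newly reached, of which clec-62 and clec-63 share 1 peak (136), F-box genes 5 of 322 (1.55%) and chemoreceptors 13 of 1267 (1.03%), while 7, 17 and 24 of these had a thresholded summit. The germline list had 1 of 58, pie-1 (107).

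Weaker peaks reached no further gene of 5 lists. They were the ribosomal proteins (0 of 78), the histones (0 of 72), the pharynx list (0 of 30), insulin signalling (0 of 17) and the major sperm proteins (0 of 31). Over all listed genes, the exact intervals of ribosomal proteins (to 4.62%) and histones (to 4.99%) ended below the 5.32% of all genes. Genes already reached cannot be newly reached, however. Over genes without a thresholded summit, the counts were 0 of 15, 0 of 50, 0 of 20, 0 of 10 and 0 of 31, in that order. The intervals there ended at 21.8, 7.11, 16.8, 30.8 and 11.2%. All of them included the 6.91% of all such genes, so a lower share than that is not shown. Of the ribosomal protein genes 63 already had a thresholded summit, and 15 remained without either. No major sperm protein gene had a summit of either kind.

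**Figure D5:**
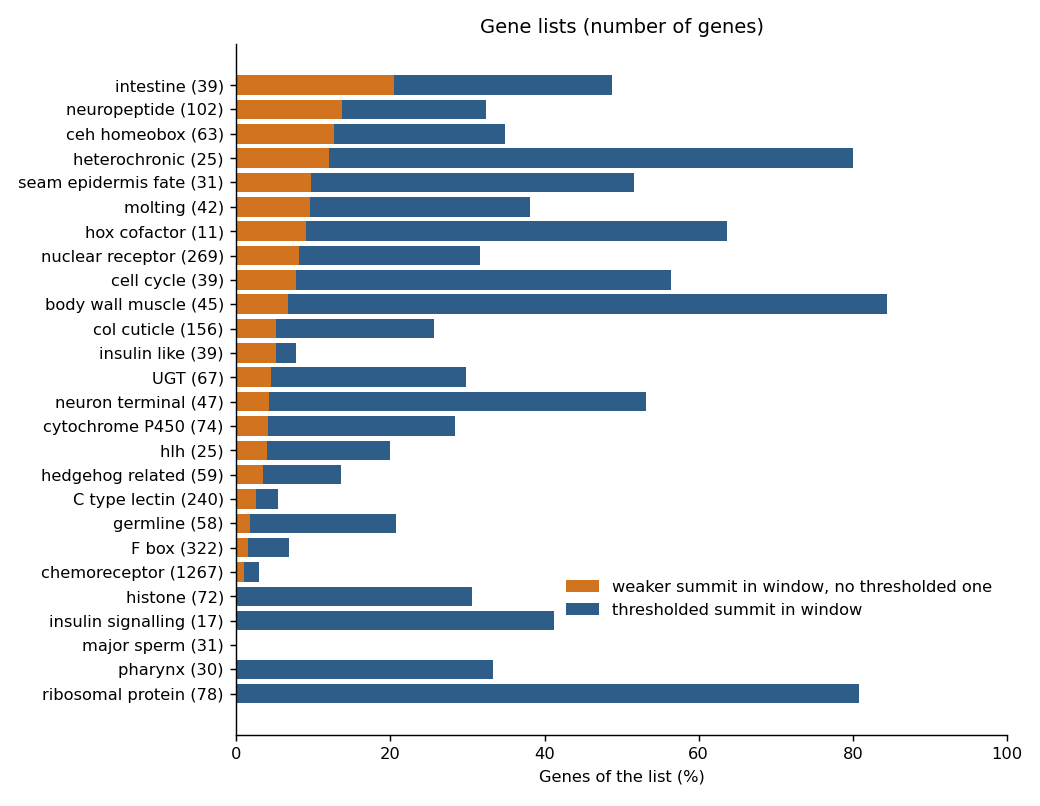
Share of the genes of each list newly reached by a weaker peak (orange) and already reached by a thresholded peak (blue), with the number of genes in parentheses. Intestinal genes are at the top with 20.5% newly reached, and over all protein-coding genes the share was 5.32%.

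Some promoters with a thresholded summit collected several weaker ones. The windows of inx-1, an innexin gene, and unc-62, a homothorax-related cofactor of Hox proteins, each held 5 weaker summits beside 1 thresholded summit. Those of crh-2, a second CREB-type gene, R05D7.3 and eat-17, a gene of pharyngeal grinder function, each held 4 weaker summits beside 2 thresholded ones. These genes have several annotated 5′ ends, so their windows together are longer than that of a gene with 1 start.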

How the data were processed

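Per the texts deposited with the samples, the authors called peaks on ce11 for each replicate and for both replicates pooled, each against a control file, and derived the IDR thresholded list from these 3. For the aligner, the caller and the IDR cutoff, names and versions were not given in the sources used here. The deposited lists hold a score (peak strength) and a −log10 q-value per peak, both computed by the authors, and a summit offset. Neither is a read count, and scales differ between lists.

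Summits were joined to Ensembl release 115 gene models and the RefSeq WBcel235 sequence, whose chromosome lengths were compared with the peaks. Peak shares were compared by two-sided Fisher's exact tests with Benjamini-Hochberg adjustment (threshold 0.05) over 23 position measures, 9 sequences and 21 class by chromosome splits; intervals are exact binomial at 95%, and Newcombe intervals for differences. Peaks are not samples, so p-values do not measure spread between replicates. The scripts were tested on simulated data. Python 3.11.15, scipy 1.17.1, pandas 2.3.3, numpy 2.4.6 and matplotlib 3.10.9 were used. The 6-mers considered occur in at least 200 thresholded summit windows.

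Members, sequences and gene lists were chosen with earlier results of these data known. Genes named are the 20 newly reached ones with the highest scores, up to 4 per list, all heterochronic ones, lin-14, lin-28, lin-4, ins-33 and unc-119, the 5 genes with most weaker summits beside a thresholded one, and the peaks nearest the threshold. The strongest coding exon peaks and the 8 displayed sequences were added after values were seen. Listed symbols opt-2, mtp-1, cdc-45, elt-5, phi-59 and pqn-47 were not matched. Alternatives covered the match, the replicates required, overlap, score, q-value, window, comparison set and merging.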

Additional observations from a re-analysis of the deposited data

How the results depend on the processing

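The number of weaker peaks was 4474 with summits matched within 50 bp, 8095 within 200 bp, 9465 with any overlap and 5877 without those that overlap a thresholded peak. When a match was required in only 1 replicate, whether or not the other matched, there were 9544 (replicate 1) and 9124 (replicate 2). The q-value was the choice that mattered most to the counts. With a pooled q-value under 0.05, added after seeing the data, 2457 weaker peaks remained and 478 genes were newly reached, and with the stronger part by score, split at the median, 608 genes were. Over the other alternatives the genes newly reached ranged between 734 and 1421, including the match required in only 1 replicate (1342 to 1421).

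The promoter, X and coding exon differences, and those of GAGAG and of the TGATAA sequence, kept their direction and stayed past the threshold in every alternative run for them. The alternatives reuse largely the same peaks, so this is not independent support. In the highest weaker and lowest thresholded score bins the intervals overlapped. The promoter shares there were 31.6% (29.3 to 33.9) and 32.9% (31.2 to 34.7), and the X shares 31.9% (29.6 to 34.3) and 30.3% (28.6 to 32.0). The promoter difference ranged from -13.001 to -5.13 points over 14 alternatives and the X difference from 3.32 to 6.10 points over 12. The coding exon difference ranged from 2.13 to 8.90 points. The ACGCAG difference, which was chosen on the thresholded peaks, kept its direction and ranged from -9.80 to -3.05 points. The GAGAG difference ranged from -19.7 to -9.62 points and the TGATAA difference from 1.92 to 5.25 points. The smallest promoter, X and sequence differences all came from the comparison with the lowest scoring thresholded peaks. No paired analysis was possible because there is only 1 group. The depth is unknown, so its limit on the number of weaker peaks cannot be given.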

Other observations

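The 71 thresholded peaks with a summit in a coding exon on the X made up 2.38% of the thresholded peaks of that chromosome, and the 58 on the autosomes 0.68%. Among weaker peaks the shares were closer, 7.87% on the X (161 peaks) and 6.80% on the autosomes (297 peaks). The pooled peaks that were below the threshold and not found in both replicates had 12.6% on the X and 15.6% on the autosomes. These shares come from splits made after the first results had been seen.

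GAGAG was less frequent at X-linked summits than at autosomal ones in both sets, 22.3% against 27.1% for weaker peaks and 36.2% against 43.8% for thresholded peaks. TGATAA was nearly even, 12.4% on the X and 12.7% on the autosomes for weaker peaks. By class, TGATAA was present at 15.3% of weaker summits in 3′ UTRs (27 of 177) and 8.95% of those in coding exons (41 of 458), with flanks at 9.60% and 10.7%. No test was made of these values.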
